A study of Homo sapiens and Mus musculus with 34 samples.

Results

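The 10 genes described here belong to the cellular response to low oxygen. They are HIF1A and EPAS1, which encode the oxygen-regulated alpha subunits of the hypoxia-inducible factors HIF-1 and HIF-2, the oxygen sensors EGLN1 and EGLN3, and 6 target genes, VEGFA, ADM, CA9, PDK1, BNIP3 and ANKRD37. They were set by symbol, and all 10 were found among the 32712 named genes of the human arrays. RNA abundance was measured on Affymetrix human transcriptome arrays in the neuroblastoma lines Kelly, SKNAS, BE2C (BE(2)C in the sample labels) and SHSY5Y (SH-SY5Y), with 3 untreated and 3 treated samples a line, the latter exposed to CYC065 for 1 h. CYC065 is an inhibitor of cyclin-dependent kinases, here used against CDK9, the kinase that releases paused RNA polymerase II into elongation. Kelly and BE2C are known as lines with an amplified MYCN gene, and SKNAS and SHSY5Y as lines without it. Cells received 1 µM, except that the sources conflict for SKNAS, with 1 µM in its sample labels and 5 µM in the treatment protocol. The controls are called untreated in the sample labels and are described as DMSO-treated in the study's design text. All cultures were kept in air, so the values describe these genes without an added hypoxic stimulus, and each line is an established line grown by itself. The 10 mouse arrays of the series were not analysed here.

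In cells with enough oxygen, the EGLN prolyl hydroxylases mark the HIF alpha subunits, the VHL protein recognises the mark, and the subunits are degraded. When oxygen falls, the subunits persist, pair with ARNT and bind hypoxia response elements, short sites with an A or G before the letters CGTG, near genes for blood vessel growth, glucose use and mitochondrial turnover. EGLN1 and EGLN3 are themselves targets of the factors they restrain, which makes a feedback loop, and much of the control of HIF activity acts on protein stability and not on the amount of HIF mRNA. In neuroblastoma, EPAS1 is also known as a gene of the sympathetic lineage.

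The RefSeq promoters (GRCh38.p14) of 5 members whose RNA passed the test in at least 1 line, and of CA9, which passed it in none, are shown because the members share membership of a pathway that reads a short promoter motif. Each line gives the 250 bases before the annotated start, 5′ to 3′ on the gene's strand. Capitals mark the core of the hypoxia response element, searched on both strands as ACGTG with its reverse complement CACGT and as GCGTG with its reverse complement CACGC.
ANKRD37, chr4:185396591-185396840, + strand: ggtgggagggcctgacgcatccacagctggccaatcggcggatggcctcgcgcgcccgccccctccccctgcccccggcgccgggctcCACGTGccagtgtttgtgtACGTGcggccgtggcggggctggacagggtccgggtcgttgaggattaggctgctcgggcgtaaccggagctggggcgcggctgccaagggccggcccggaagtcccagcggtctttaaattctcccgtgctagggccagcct
EGLN1, chr1:231422288-231422537, - strand: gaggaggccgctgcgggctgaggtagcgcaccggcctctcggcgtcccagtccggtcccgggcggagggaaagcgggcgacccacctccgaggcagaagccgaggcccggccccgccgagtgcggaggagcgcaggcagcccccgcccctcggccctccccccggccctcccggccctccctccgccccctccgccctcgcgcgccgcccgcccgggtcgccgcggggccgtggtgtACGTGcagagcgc
EGLN3, chr14:33951075-33951324, - strand: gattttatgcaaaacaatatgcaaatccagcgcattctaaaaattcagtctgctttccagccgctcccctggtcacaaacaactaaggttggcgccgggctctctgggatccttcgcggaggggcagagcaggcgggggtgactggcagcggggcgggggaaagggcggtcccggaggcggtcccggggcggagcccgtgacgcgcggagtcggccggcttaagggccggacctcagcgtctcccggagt
ADM, chr11:10304823-10305072, + strand: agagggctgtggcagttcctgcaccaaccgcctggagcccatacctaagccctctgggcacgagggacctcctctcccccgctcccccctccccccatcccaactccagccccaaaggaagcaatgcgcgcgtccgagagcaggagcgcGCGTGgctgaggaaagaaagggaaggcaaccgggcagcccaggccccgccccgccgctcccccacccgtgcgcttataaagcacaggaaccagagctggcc
PDK1, chr2:172555840-172556089, + strand: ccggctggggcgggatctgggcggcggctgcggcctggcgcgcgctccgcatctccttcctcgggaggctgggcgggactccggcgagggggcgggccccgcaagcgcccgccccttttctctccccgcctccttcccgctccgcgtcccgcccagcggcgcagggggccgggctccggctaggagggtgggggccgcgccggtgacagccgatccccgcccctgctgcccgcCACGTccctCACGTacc
CA9, chr9:35673678-35673927, + strand: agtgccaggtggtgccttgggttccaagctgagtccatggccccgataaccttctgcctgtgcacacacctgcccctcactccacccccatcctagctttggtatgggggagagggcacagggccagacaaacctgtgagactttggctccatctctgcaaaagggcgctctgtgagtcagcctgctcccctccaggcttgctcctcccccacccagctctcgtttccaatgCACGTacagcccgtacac

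Promoter entries were available for 9 of the 10 members, all except VEGFA. HIF1A and PDK1 each have 2 entries, and the PDK1 entry shown is the one at the later of its 2 starts. ANKRD37 had 3 matches, with first bases at positions -162, -161 and -143 from the start. The first 2 of them are the 2 strands of 1 CACGTG, a palindrome that is also the E-box bound by MYC family factors, so that it counts as 2 matches. EGLN1 had 1 match at -13, ADM 1 at -101, CA9 1 at -18 and the PDK1 entry shown 2 at -17 and -8. EGLN3 had none in this window, nor had the PDK1 entry at the earlier start. BNIP3 had 6 matches including 1 CACGTG, EPAS1 had 1 at -117, and HIF1A had 1 at -204 in 1 entry and none in the other. Of 35116 RefSeq promoters of the same length, 43.2% held at least 1 such core, 19.4% at least 2, 7.8% at least 3 and 6.3% a CACGTG. A match is a string of letters and not an observed binding site, and this window leaves out more distant elements.

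The arrays within each group were alike, with r of 0.994 to 0.999 across genes. Array medians on the log2 scale were 4.62 to 4.75 in Kelly and SKNAS and 4.77 to 4.94 in BE2C and SHSY5Y. In Kelly they were 4.62 to 4.66 untreated and 4.69 to 4.75 treated, without overlap. The median change over all genes was 0.07 in Kelly. Precision is limited by the number of arrays. All 15 markers of adrenergic neuroblastoma cells lay more than 1 log2 unit over the mean of the 23 background control rows in untreated Kelly, BE2C and SHSY5Y cells, and 13 of 15 did in SKNAS. Of 11 mesenchymal markers, 9 did so in untreated SKNAS cells, against 6 in both SHSY5Y and BE2C cells and 5 in Kelly cells. Markers of other cell types passed the same cut too, 4 of 14 in untreated Kelly cells and 5 of 14 in every other untreated line. The brightest of these was KRT18 at 9.85 in untreated SKNAS cells. Passing this cut therefore does not by itself identify a cell type. The 15 adrenergic markers had a median level of 10.16 in untreated Kelly cells and 6.42 in untreated SKNAS cells. All 15 were called higher in Kelly than in SKNAS, a pair in which 36.9% of all genes differed. MYCN fell by 2.98 ± 0.05 in Kelly and by 1.41 ± 0.06 in BE2C (log2 change ± SE). Its changes in SKNAS (-0.06 ± 0.11, adjusted p = 0.82) and SHSY5Y (-0.37 ± 0.14, adjusted p = 0.28) did not pass the test. Of the reference genes, GAPDH did not pass the test in any line (changes of 0.01 to 0.07), while TBP fell by 0.62 in Kelly and by 0.44 in SHSY5Y. The mean of the background rows was 4.54 untreated and 4.69 treated in Kelly, 4.58 and 4.67 in SKNAS, 4.91 and 5.08 in BE2C, and 4.98 and 5.06 in SHSY5Y, so it was higher after treatment in each line. Its part in the changes of dim genes was not tested.

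Treatment with CYC065 was compared with no treatment within each line, to ask how these genes stood after 1 h of the drug. VEGFA, the main growth factor for blood vessels, was called lower in Kelly, BE2C and SHSY5Y, by about the same amount. EGLN3 was called lower in Kelly, SKNAS and SHSY5Y. ADM, ANKRD37 and EGLN1 were each called lower in a single line, with uncalled falls in others. PDK1 was called higher in BE2C, and HIF1A, EPAS1, CA9 and BNIP3 passed the test in no line. A change was called at a limma p-value under 0.05 after Benjamini-Hochberg adjustment over all 32712 genes, with 3 arrays against 3. In Kelly 4 of the 10 members were called lower and none higher, where 11.0% of all genes were called lower and 8.84% higher. In SKNAS 1 was lower and none higher, against 4.57% and 1.33% of all genes. In BE2C 1 was lower and 1 higher, against 3.02% and 0.669%, and in SHSY5Y 3 were lower and none higher, against 3.98% and 0.397%. At least 1 line called 5 of the 10 members lower, and 12.2% of all genes. The share depends on which genes are tested: with dim genes left out, the share called lower was 19.6% in Kelly, 8.88% in SKNAS and 7.91% in both BE2C and SHSY5Y. Every treated array lay under every untreated one for 7 members in Kelly, 4 in SKNAS, 4 in BE2C and 5 in SHSY5Y, against 15.4%, 10.9%, 12.4% and 10.2% of all genes. The reverse separation was seen for 1, 0, 1 and 1 members, against 27.7%, 13.7%, 10.9% and 7.91% of all genes.

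**Figure D1:**
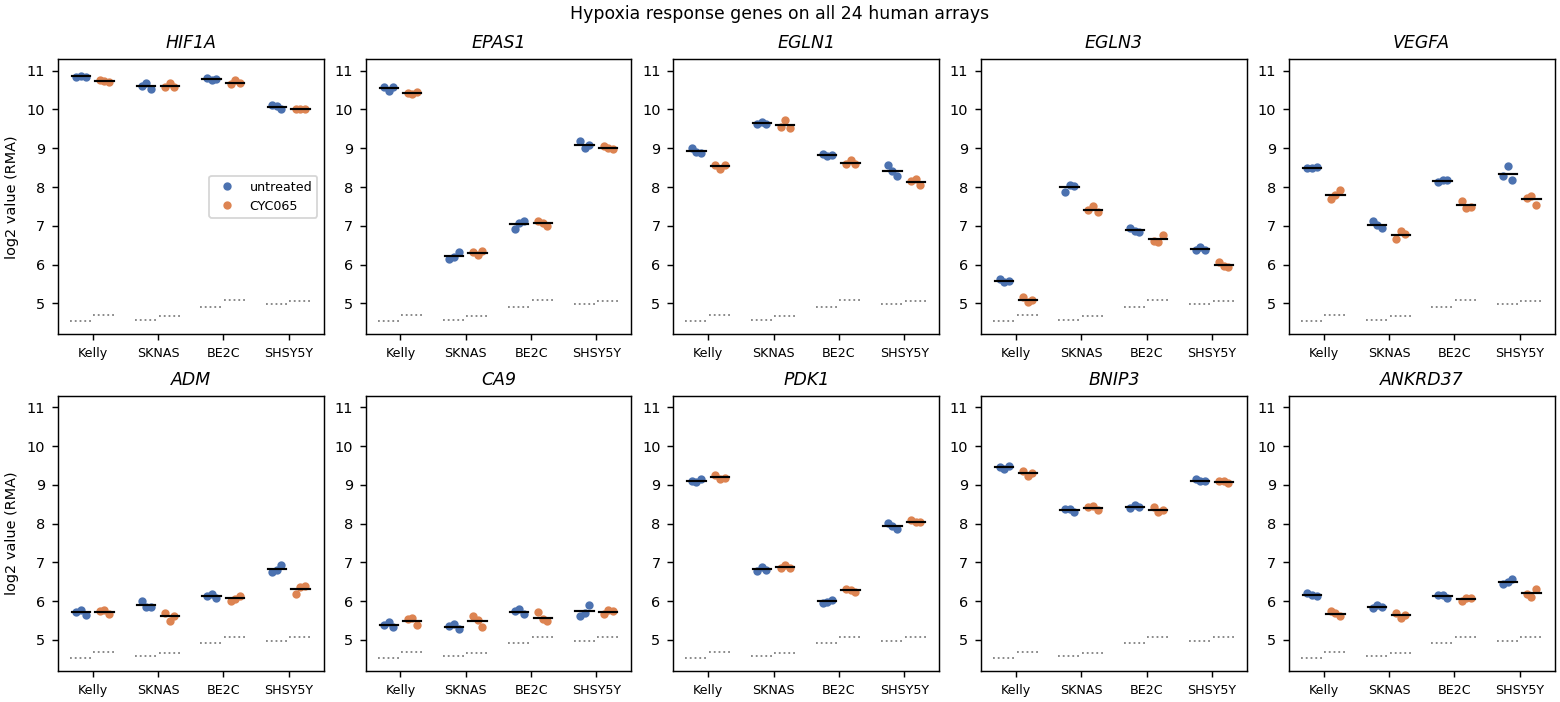
Deposited log2 values (y axis) of each of the 10 genes on all 24 human arrays, by line (x axis), untreated in blue and CYC065 in orange, 3 arrays per group, with a black bar at the group mean and a dotted grey line at the mean of the background control rows. The treated arrays of VEGFA and EGLN3 lie under the untreated ones in all 4 lines, while CA9 stays within 0.85 of the background mean in every group.

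VEGFA was measured at 8.50, 8.49 and 8.51 on the untreated Kelly arrays and at 7.70, 7.80 and 7.92 on the treated ones (log2 values, as for all levels here). The corresponding values were 8.12, 8.19 and 8.19 against 7.64, 7.45 and 7.50 in BE2C, and 8.29, 8.54 and 8.19 against 7.72, 7.77 and 7.55 in SHSY5Y. In SKNAS they were 7.13, 7.03 and 6.95 against 6.67, 6.87 and 6.79. In each of the 4 lines every treated array lay under every untreated one, with the widest separation in Kelly and BE2C and the narrowest in SKNAS. VEGFA fell by 0.69 ± 0.06 in Kelly (1.61-fold, adjusted p = 0.000209). The fall was 0.66 ± 0.11 in SHSY5Y (adjusted p = 0.00738) and 0.64 ± 0.06 in BE2C (adjusted p = 0.00341). In SKNAS the change was -0.26 ± 0.08, with an adjusted p of 0.0973. It was under 0.05 there when dim genes were left out (0.0472) or when both VEGFA rows of the array were averaged (0.0488). The second, dimmer VEGFA row had changes of -0.45 in Kelly, -0.23 in SKNAS, -0.48 in BE2C and -0.44 in SHSY5Y, the same direction as the brighter row with a smaller size in each.

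EGLN3, the oxygen sensor whose own transcription rises most readily with HIF activity in many cells, was measured at 7.88, 8.06 and 8.03 on untreated SKNAS arrays and at 7.41, 7.50 and 7.35 after CYC065. In Kelly it stood at 5.63, 5.55 and 5.58 against 5.17, 5.02 and 5.09, and in SHSY5Y at 6.37, 6.45 and 6.38 against 6.07, 5.97 and 5.93. The BE2C values were 6.94, 6.87 and 6.85 against 6.61, 6.58 and 6.75. As for VEGFA, no treated array reached the untreated ones in any line. EGLN3 fell by 0.57 ± 0.07 in SKNAS (1.48-fold, adjusted p = 0.00173), by 0.49 ± 0.06 in Kelly (adjusted p = 0.000679) and by 0.41 ± 0.07 in SHSY5Y (adjusted p = 0.0131). The change in BE2C was -0.24 ± 0.06 with an adjusted p of 0.115. The SHSY5Y call was lost without untreated array 2 (adjusted p = 0.0751), treated array 5 (0.0759) or treated array 6 (0.0649). In treated Kelly cells EGLN3 lay 0.41 over the background mean, so the fold there can be understated.

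EGLN1, the prolyl hydroxylase that does most of the marking of HIF alpha in normal oxygen, was brighter than background by over 3 log2 units in every group. In Kelly it stood at 9.00, 8.90 and 8.87 untreated and 8.57, 8.47 and 8.56 treated, which do not overlap, and it fell by 0.39 ± 0.06 (adjusted p = 0.00269). In SKNAS the values were 9.64, 9.69 and 9.63 against 9.56, 9.72 and 9.53, which overlap. There the change was -0.05 ± 0.07. In BE2C (-0.19 ± 0.06, adjusted p = 0.143) and SHSY5Y (-0.29 ± 0.09, adjusted p = 0.158) the treated arrays lay under the untreated ones without passing the test. The SHSY5Y change was called under array weights (0.0225) and with the spread shared over all 24 arrays (0.00653). The second EGLN1 row had changes of -0.34 in Kelly, -0.08 in SKNAS, -0.04 in BE2C and -0.21 in SHSY5Y.

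ANKRD37, a small ankyrin repeat protein induced by HIF-1, was measured at 6.22, 6.15 and 6.14 on untreated and 5.74, 5.70 and 5.61 on treated Kelly arrays. It fell there by 0.49 ± 0.05 (1.40-fold, adjusted p = 0.000626). The BE2C values, 6.15, 6.15 and 6.07 against 6.01, 6.08 and 6.07, overlapped, with a change of -0.07 ± 0.05. In SKNAS (-0.22 ± 0.06, adjusted p = 0.0854) and SHSY5Y (-0.29 ± 0.08, adjusted p = 0.103) all treated arrays were lower than all untreated ones. The SKNAS change was called with dim genes left out (0.0423) and with the spread shared over all 24 arrays (0.0145). The SHSY5Y change was called under array weights (0.00753) and with that shared spread (0.00113). ANKRD37 lay 0.96 to 1.63 over the background mean in the 8 groups, and the part of this low signal in the differences between lines was not tested.

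ADM, the precursor of the vessel-dilating peptide adrenomedullin, fell in SHSY5Y. On those arrays it was 6.75, 6.81 and 6.93 untreated and 6.19, 6.38 and 6.40 treated, a fall of 0.51 ± 0.09 (1.43-fold, adjusted p = 0.0103) with no overlap. In SKNAS it was 5.99, 5.85 and 5.85 against 5.71, 5.50 and 5.62, also without overlap, and the change of -0.29 ± 0.08 had an adjusted p of 0.0641, which came to 0.0279 with dim genes left out. In Kelly the values were 5.73, 5.77 and 5.65 against 5.75, 5.77 and 5.67, and in BE2C 6.13, 6.19 and 6.07 against 6.01, 6.05 and 6.14. Both sets overlap, and the changes were 0.01 ± 0.05 and -0.06 ± 0.06. ADM lay 1.85 over the background mean in untreated SHSY5Y cells and 1.18 to 1.32 over it in the other untreated lines. After treatment it lay 0.94 to 1.26 over that mean. The part of this low signal in the differences between lines was not tested.

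PDK1, a kinase that switches off pyruvate dehydrogenase, was the only member with a called rise in a line. In BE2C it stood at 5.96, 5.99 and 6.02 untreated and at 6.31, 6.29 and 6.25 treated, without overlap. The rise was 0.29 ± 0.05 (1.22-fold, adjusted p = 0.0241). It was not called without any single array of the 6 (adjusted p = 0.0552 to 0.112), and the adjusted p in the authors' deposited table is 0.0729. PDK1 lay 1.08 over the background mean in untreated BE2C cells, where that mean was itself higher after treatment. The changes in Kelly, SKNAS and SHSY5Y were 0.09, 0.05 and 0.12, none of them called.

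The HIF alpha subunits themselves changed little within a line. HIF1A ranged from 10.85 to 10.87 untreated and from 10.71 to 10.76 treated in Kelly, which do not overlap, a change of -0.12 ± 0.04 (adjusted p = 0.101). This Kelly change passed the threshold with each array centred on its median (adjusted p = 0.0302) and with a trended, robust variance (0.0229). In SKNAS, BE2C and SHSY5Y the HIF1A changes were 0.01 ± 0.07, -0.10 ± 0.05 and -0.06 ± 0.07. EPAS1 changed by -0.12 ± 0.05 in Kelly, 0.09 ± 0.07 in SKNAS, 0.03 ± 0.07 in BE2C and -0.08 ± 0.07 in SHSY5Y, with adjusted p-values of 0.123 to 0.894. The 95% intervals of the 4 EPAS1 changes, each unadjusted, reached from -0.25 to 0.24 at their widest ends. The Kelly interval, -0.24 to -0.005, lay wholly on the negative side.

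BNIP3, which marks mitochondria for removal, and CA9, a surface enzyme that acidifies the medium and is among the strongest hypoxia targets in tumors, were not called in any line. BNIP3 was bright, 9.42 to 9.47 untreated and 9.24 to 9.35 treated in Kelly, with no overlap and a change of -0.16 ± 0.05 (adjusted p = 0.0655). Its changes in SKNAS, BE2C and SHSY5Y were 0.05, -0.08 and -0.03. The Kelly BNIP3 change was called under 5 of the alternatives, among them leaving out dim genes (adjusted p = 0.0348) and quantile normalisation (0.0489). CA9 lay 0.50 to 0.85 over the background mean in every group, and its changes of 0.10, 0.14, -0.15 and -0.00 had SEs of 0.07 to 0.09. Its RNA was therefore close to the limit of what these arrays measure, which leaves room for no more than a small measured fall.

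**Figure D2:**
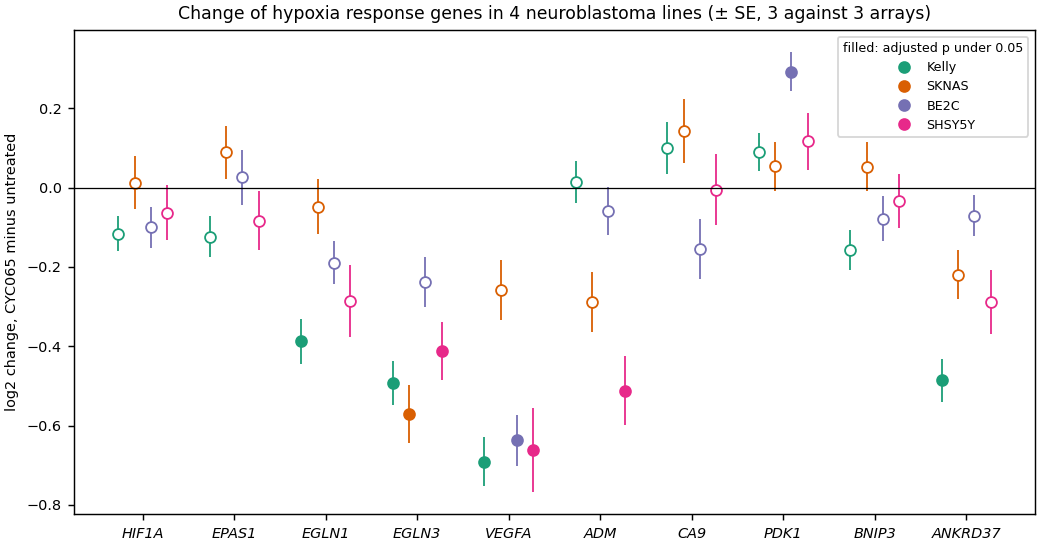
Change of each of the 10 genes (x axis) as treated minus untreated log2 value (y axis), by line in colour, with the limma standard error, 3 against 3 arrays. Filled points had an adjusted p under 0.05. VEGFA shows 3 filled points between -0.69 and -0.64 and EGLN3 3 filled points between -0.57 and -0.41, and the only filled point over 0 is PDK1 in BE2C.

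Averaged over the 4 lines, 6 members were lower and 1 higher, where 12.9% of all genes were called lower and 15.5% higher. The median change was -0.14 over the 10 members and 0.04 over all genes. VEGFA fell by 0.56 ± 0.04 (adjusted p = 5.52e-10), EGLN3 by 0.43 ± 0.03 (4.51e-10), ANKRD37 by 0.27 ± 0.03 (1.51e-07), EGLN1 by 0.23 ± 0.03 (1.71e-05) and ADM by 0.21 ± 0.03 (6.11e-05). PDK1 rose by 0.14 ± 0.02 (adjusted p = 0.000113). HIF1A was called lower by 0.07 ± 0.02 (adjusted p = 0.0419), and that call was lost in 18 of the 24 fits with a single array left out (adjusted p up to 0.0823). For EPAS1, BNIP3 and CA9 the averages were -0.02, -0.05 and 0.02, not called.

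Whether the response differed between lines was tested directly with a moderated F test, which called 5.15% of all genes and 2 of the 10 members. ADM had an adjusted p of 0.00433 and ANKRD37 of 0.0131, in both cases with every array left out in turn still giving a value under 0.05. Kelly and SKNAS form the earlier deposit, and BE2C and SHSY5Y the later. Between lines of different deposits, line and deposit cannot be told apart in this test. For VEGFA the adjusted p was 0.0698 and for EGLN3 0.108, not called. The VEGFA difference was called under 5 alternatives, quantile normalisation (0.0277), dim genes left out (0.038), trended robust variance (0.0477), array weights (0.0154) and both rows averaged (0.0245), and without SHSY5Y untreated array 2 (0.0416) or 3 (0.0276). In the BE2C and SHSY5Y pair, which belong to 1 deposit, the ADM response was 0.45 ± 0.10 higher in BE2C (adjusted p = 0.0225, against 1.00% of all genes called). That difference lost its call without BE2C untreated array 1 (0.058) or 3 (0.0664), BE2C treated array 6 (0.0726) or SHSY5Y treated array 4 (0.0549). In the Kelly and SKNAS pair, VEGFA (-0.43 ± 0.12, adjusted p = 0.0402) and EGLN1 (-0.34 ± 0.09, 0.0474) fell further in Kelly, against 3.90% of all genes called. The VEGFA call was lost in 9 and the EGLN1 call in 11 of the 12 fits with 1 array of the pair left out, with adjusted p-values up to 0.12 and 0.142. With the replicate number as a block they were 0.0617 and 0.102. Both calls were lost under median centring (0.0504 and 0.0814), and the EGLN1 call also under quantile normalisation (0.0523). Line and dose cannot be told apart in that pair, or for SKNAS in the F test, if SKNAS received 5 µM. The ANKRD37 difference was not called within either deposit. It was -0.27 ± 0.08 for Kelly minus SKNAS (adjusted p = 0.0696) and 0.22 ± 0.08 for BE2C minus SHSY5Y (0.31). The former was called under some alternatives, among them median centring (0.00898) and quantile normalisation (0.0136).

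Untreated levels were compared within each deposit. Kelly exceeded SKNAS 20.1-fold in EPAS1, at 10.55 ± 0.06 against 6.22 ± 0.08 (mean ± SD, n = 3, adjusted p = 1.56e-14). SHSY5Y exceeded BE2C in the same gene 4.14-fold, at 9.09 ± 0.09 against 7.04 ± 0.11 (adjusted p = 1.01e-10). PDK1 followed the same order, 4.89-fold higher in Kelly (9.11 ± 0.03 against 6.82 ± 0.05) and 3.84-fold lower in BE2C (5.99 ± 0.03 against 7.93 ± 0.07), as did BNIP3, 2.15-fold higher in Kelly and 1.59-fold lower in BE2C. EGLN3 had the opposite order, 5.28-fold lower in Kelly (5.59 ± 0.04 against 7.99 ± 0.10) and 1.40-fold higher in BE2C (6.89 ± 0.05 against 6.40 ± 0.04). In all of these the arrays of the 2 lines were separate by more than their spread.

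Between the untreated lines 9 members differed in the Kelly and SKNAS pair and 8 in the BE2C and SHSY5Y pair, where 36.9% and 30.8% of all genes did. For VEGFA the Kelly level was 2.76-fold that of SKNAS (8.50 ± 0.01 against 7.03 ± 0.09), and in BE2C and SHSY5Y it stood at 8.17 ± 0.04 and 8.34 ± 0.18 (adjusted p = 0.125). That last difference was called under some alternatives, among them quantile normalisation (0.00827) and leaving out SHSY5Y untreated array 3 (0.0248). EGLN1 was 1.66-fold lower in Kelly and 1.32-fold higher in BE2C. HIF1A, at 10.86 in Kelly and 10.61 in SKNAS, was higher in Kelly by 0.25 ± 0.06, a call lost under quantile normalisation, and BE2C exceeded SHSY5Y 1.65-fold (10.79 against 10.07). ADM was 1.63-fold lower in BE2C, and its lower level in Kelly (-0.18 ± 0.07, adjusted p = 0.0477) lost the call without any single array. ANKRD37 was higher by 0.31 in Kelly and lower by 0.37 in BE2C, while CA9 was not called in either pair.

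**Figure D3:**
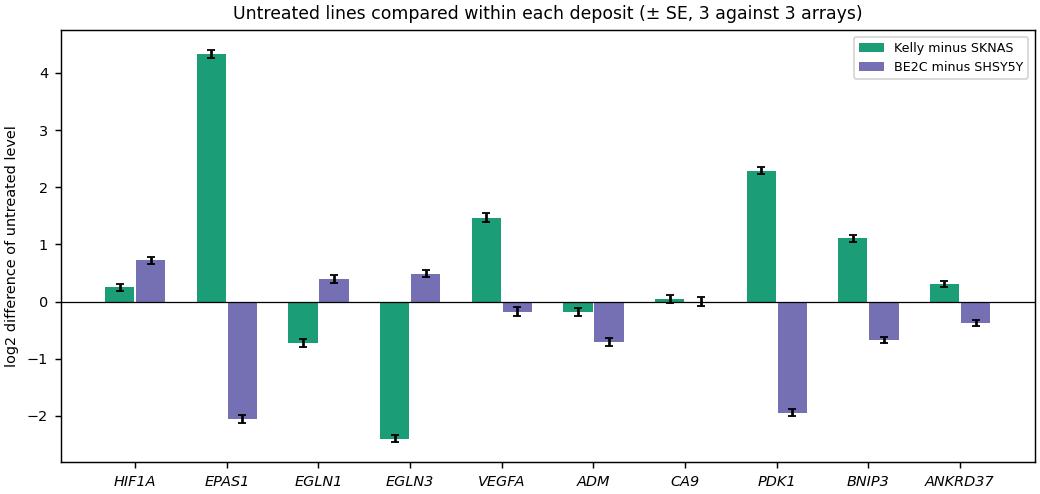
Difference of untreated log2 level (y axis) for each of the 10 genes (x axis), Kelly minus SKNAS in green and BE2C minus SHSY5Y in purple, as bars from 0 with the limma standard error, 3 against 3 arrays. EPAS1, PDK1 and BNIP3 are positive in the first pair and negative in the second, and EGLN3 and EGLN1 are the reverse.

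Over the 24 arrays, after each line's mean was taken out, VEGFA correlated with EGLN1 at r = 0.863, with EGLN3 at 0.809, with ANKRD37 at 0.742 and with PDK1 at -0.746. EGLN3 and ANKRD37 had r = 0.849 and HIF1A and EGLN1 r = 0.836, while CA9 correlated with none of them beyond -0.284. These are descriptions over arrays that share the treatment, so that any pair of genes moving with CYC065 correlates. Of 14725 genes searched, those most like VEGFA were ZNF195 (r = 0.961), PROX1 (0.959) and ZNF506 (0.958), and those most like EGLN3 were EME1 (0.986), ZBTB43 (0.979) and ZSCAN9 (0.975). None of these is on the lists of hypoxia genes used here.

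The other genes of the pathway were followed through lists of 97 genes, of which 95 were measured. In Kelly 27 were lower and 9 higher, against 11.0% and 8.84% of all genes. In SKNAS the counts were 14 and 1, against 4.57% and 1.33%, in BE2C 6 and 1, against 3.02% and 0.669%, and in SHSY5Y 10 and 0, against 3.98% and 0.397%. The rises were thus few and near the share of all genes. At least 1 line called 29 of them lower and 9 higher, against 12.2% and 9.83% of all genes, and 57 were called in none. DDIT4, HILPDA, PDP1 and PDP2 were called lower in all 4 lines, where 1.71% of all genes were. The median of the average response was -0.01 in the regulators of HIF, 0.02 in the glycolysis genes, 0.01 in the other induced targets and 0.07 in the receptors. It was -0.02 in the list named relatives of PDK1 and BNIP3, against 0.04 over all genes.

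Among 18 measured subunits and regulators of HIF, 7 fell and 4 rose on average, where 12.9% of all genes fell and 15.5% rose, shares that hold for the lists below as well. EP300, the coactivator acetyltransferase that HIF recruits, fell by 1.09 ± 0.05 in Kelly, 0.82 ± 0.11 in SHSY5Y and 0.58 ± 0.09 in BE2C (log2 units ± SE), the BE2C call being lost without untreated array 2 (adjusted p = 0.0595) or 3 (0.0741). CITED2, which competes with HIF for that coactivator, fell by 1.13 ± 0.09 in Kelly and by 1.18 ± 0.07 in SKNAS, and stood at -0.28 ± 0.07 in BE2C and 0.08 ± 0.09 in SHSY5Y. That difference between lines had an adjusted p of 3.46e-07 in the F test. Kelly and SKNAS form the earlier deposit, so line and deposit cannot be told apart in it. SIAH2 and SIAH1, ubiquitin ligases that destabilise EGLN3 protein among others, fell on average by 0.48 ± 0.04 and 0.33 ± 0.03.

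Of 21 genes of glycolysis and glucose uptake, 5 fell and 5 rose on average. PFKFB3, which makes the activator of phosphofructokinase, fell by 0.87 ± 0.06 in Kelly, 0.47 ± 0.07 in SKNAS and 0.49 ± 0.08 in SHSY5Y, and its change in BE2C was -0.45 ± 0.09 (adjusted p = 0.0531). The SHSY5Y call was lost without untreated array 1 (0.0582) or treated array 5 (0.0646), and the BE2C change was called under 4 alternatives (0.000899 to 0.0408). SLC2A1, the basal glucose transporter, fell on average by 0.26 ± 0.02, and ENO1 by 0.19 ± 0.02, while ENO2 rose by 0.16 ± 0.03. Both ENO1 and ENO2 encode the glycolytic enzyme enolase.

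Among 41 other induced targets, 11 fell and 7 rose on average. DDIT4, an inhibitor of mTORC1 signalling, fell by 0.93 ± 0.08 in Kelly, 0.47 ± 0.08 in SKNAS, 0.64 ± 0.06 in BE2C and 0.74 ± 0.08 in SHSY5Y, the SKNAS call being lost without untreated array 3 (adjusted p = 0.0578). HILPDA, a lipid droplet protein, fell by 0.85, 0.55, 0.44 and 0.56, and its BE2C call was lost in 4 of the 6 fits with an array left out (adjusted p up to 0.0666). ERRFI1, a feedback inhibitor of the EGF receptor, fell by 0.82 in Kelly, 0.72 in SKNAS and 0.74 in SHSY5Y. CXCR4, a chemokine receptor, fell by 1.14 ± 0.09 in SHSY5Y and 0.64 ± 0.05 in Kelly. In SKNAS and BE2C its change was -0.01, from untreated levels of 4.91 and 5.34 that lay close over the background means of 4.58 and 4.91, so that little fall could be measured there and the difference between lines is not read.

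Of 9 measured receptors and receptor partners for the VEGFA and ADM products, 3 were called higher and 1 lower on average. RAMP2, a partner of the adrenomedullin receptor, rose by 0.25 ± 0.04 on average, with calls in Kelly, SKNAS and BE2C that were lost in 4, 5 and 6 of the 6 fits with an array left out (adjusted p up to 0.0974, 0.161 and 0.145). The co-receptor NRP1 was called lower by 0.09 ± 0.03, a call lost under array weights (adjusted p = 0.0504). The other 2 calls are not read as rises of RNA. CALCRL, the adrenomedullin receptor, lay at 2.58 to 2.79 in every group, under the background mean, and FLT1, a VEGF receptor, lay under it in Kelly, BE2C and SHSY5Y. In SKNAS, where FLT1 stood at 7.93 untreated and 8.15 treated, its change had an adjusted p of 0.118. With each array centred on its median the FLT1 and CALCRL calls were lost (adjusted p = 0.0534 and 0.307), as were the 3 RAMP2 calls in single lines, and FLT1 was not called with both rows averaged (0.468). FLT4 was called in Kelly alone (0.37 ± 0.09), a call lost in 5 of 6 such fits.

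Of 9 genes in the list named relatives of PDK1 and BNIP3, 3 fell and 3 rose on average. The list also holds phosphatases and subunits of pyruvate dehydrogenase, and the 3 that fell were PDP1, PDP2 and BNIP1. PDP2 and PDP1, the phosphatases that reverse what PDK1 does to pyruvate dehydrogenase, fell by 0.67 ± 0.04 and 0.61 ± 0.03, the sharpest falls of that list. In the order Kelly, SKNAS, BE2C, SHSY5Y, PDP2 fell by 1.09, by 0.44, by 0.40 and by 0.76, and PDP1 fell by 0.80, by 0.78, by 0.26 and by 0.59. The PDP1 call in BE2C was lost without any single array (adjusted p = 0.0851 to 0.169), and that of PDP2 without BE2C untreated array 1 (0.0516). BNIP1 fell by 0.32 ± 0.03 on average, and BNIP3L, the closest relative of BNIP3 in mitochondrial removal, rose by 0.09 ± 0.02, a call lost under median centring (adjusted p = 0.166).

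**Figure D4:**
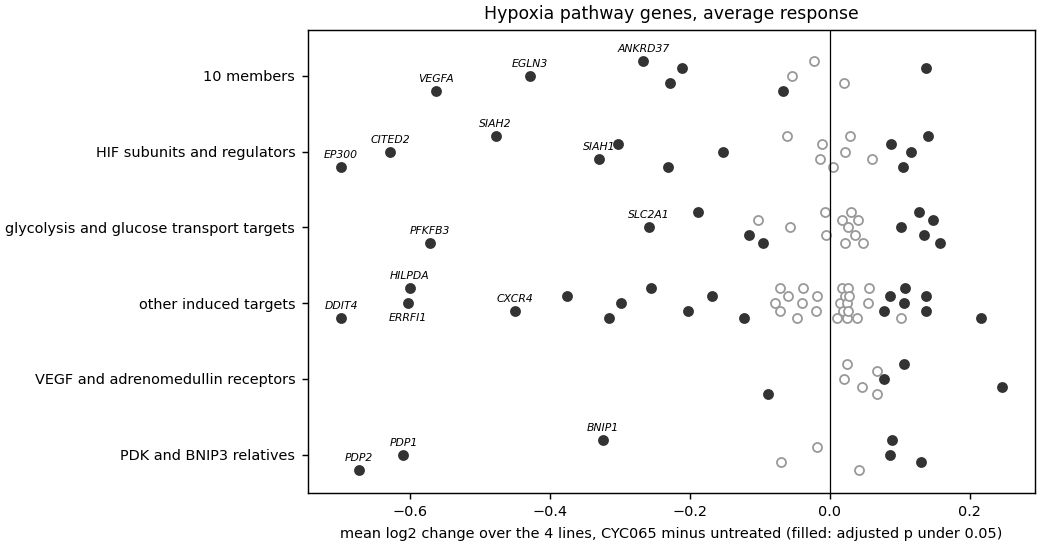
Mean log2 change over the 4 lines (x axis, treated minus untreated) of the 10 members and of the measured genes of 5 lists (rows), filled where the adjusted p was under 0.05, including CALCRL and FLT1, whose signals lay under background in all and in 3 lines. The points spread to both sides of 0 in every row, and the falls reach from -0.70 for DDIT4 and EP300 to smaller values, past the -0.56 of VEGFA.

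Positions of the members are those of RefSeq on GRCh38.p14. VEGFA lies on chromosome 6 (43770211 to 43786487), EGLN3 on chromosome 14 (33924227 to 33951074), HIF1A on chromosome 14 (61695513 to 61748258), EGLN1 on chromosome 1 (231363756 to 231422287) and ADM on chromosome 11 (10305073 to 10307397). The array values summarise probes across each gene's transcripts, so that they do not separate exons, introns or UTRs.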

How the data were processed

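RNA of 24 human cell line samples was labelled and hybridized by the authors to Affymetrix transcriptome arrays. Each deposited value is a log2 summary of 1 row, made by the authors with RMA, affy and limma as named in the submitters' processing notes, with no version or role given. RMA scales arrays to a like distribution and can hide a global change of RNA content. For BE2C and SHSY5Y, the authors' deposited table lists for each symbol its log2 fold change, average log2 level and p-value, raw and adjusted.

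Rows were named by value: a symbol was given to the row, or mean of 2 rows, whose changes and levels equal the table's within 1e-07. Of 33720 symbols 32712 (97.0%) were used, and with values moved to other symbols 0 matched. Of 2 rows with 1 symbol, the brighter was taken; the authors' table then gives both rows' mean.

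Lines were fitted with limma 3.58.1 (R 4.3.3), lmFit and eBayes, 3 arrays against 3, the design text calling them biological replicates. A fit of 8 group means gave averages and differences between lines, and 4 untreated group means the levels, compared only within a deposit. A call is an adjusted p under 0.05 over all genes. Fits were tested on simulated data with 50 genes changed 1.5-fold. The line fits recovered 72% of these in Kelly, 60% in SKNAS, 52% in BE2C and 46% in SHSY5Y. False calls numbered 7, 6, 3 and 5. A change that was not called is therefore not shown to be absent. Far more than 50 genes were called in each line fit of the real data. The simulated shares and false calls thus do not measure those of the real calls. Alternatives were median centring, quantile normalisation, leaving out dim genes, trended robust variance, array weights, both rows averaged, a shared spread, a fold of at least 1.5, the replicate block and each array left out. Same-numbered arrays of paired lines deviated together at r of -0.219 to 0.103, so numbers do not pair them.

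Named genes were all members, up to 4 genes per list by smallest average adjusted p, called genes of short lists, and the 3 genes most like each member called in at least 2 lines. Members and lists were chosen with earlier results of these data known. Columns without a sample numbered 0, and raw array files were not used.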

Additional observations from a re-analysis of the deposited data

Results flagged for a closer look

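The ADM response differed between the 4 lines (moderated F test, adjusted p = 0.00433), with a fall of 0.51 in SHSY5Y and a change of 0.01 in Kelly. Kelly and SHSY5Y belong to different deposits. Within the later deposit the ADM response was 0.452 higher in BE2C than in SHSY5Y (adjusted p = 0.0225), a call lost in some fits with an array left out. The ANKRD37 response also differed between lines (adjusted p = 0.0131), with a fall of 0.49 in Kelly and a change of -0.07 in BE2C. These lines belong to different deposits, and within a deposit the main fits called no ANKRD37 difference. The Kelly minus SKNAS difference of response was -0.433 for VEGFA (adjusted p = 0.0402) and -0.339 for EGLN1 (adjusted p = 0.0474). Both calls were lost in most fits with an array left out, and under median centring. Each was flagged because the difference between lines was itself tested and passed. ADM and ANKRD37 lay close to the background mean in most groups, and the part of this in their differences was not tested.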

How the results depend on the processing

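No called value of a named gene changed direction. Of 3297 values of single genes recomputed under the alternatives, 3071 kept their side of the threshold, 174 lost and 52 gained a call. The count of members called moved by over 1.5 times as follows, and the cause was not tested. With a fold of at least 1.5 it was 1 of 4 in Kelly, 0 of 1 in SKNAS, 1 of 2 in BE2C and 1 of 3 in SHSY5Y. In SKNAS it rose from 1 to 2 under median centring, quantile normalisation or both rows averaged, to 3 with the shared spread and to 4 with dim genes left out. In that last fit 8.88% of the genes tested were called lower in SKNAS, against 4.57% of all genes in the main fit. In SHSY5Y it rose from 3 to 5 under array weights or the shared spread. The F test called 4 members under quantile normalisation and 5 under array weights instead of 2. For Kelly minus SKNAS it was 1 under median centring, where VEGFA and EGLN1 were both lost and ANKRD37 was called. It was 4 under array weights instead of 2, and for BE2C minus SHSY5Y 2 under array weights instead of 1. Smaller moves were 5 or 6 instead of 4 in Kelly under 5 alternatives, with BNIP3 and in 2 of them HIF1A added, 3 instead of 2 in BE2C with dim genes left out or the shared spread (EGLN3), and 3 instead of 2 in the F test with dim genes left out, trended variance or both rows averaged (VEGFA). With single arrays left out, the counts were 1 in each BE2C fit, 2 to 3 in SHSY5Y, 2 to 4 in the F test (4 without SHSY5Y untreated array 3), and 0 to 1 in both differences. With the replicate block, the Kelly minus SKNAS count was 0, and the numbers do not pair the arrays. Calls over all genes moved too under several alternatives, as given below. The moves of these counts are therefore not read as particular to the members.

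Among all genes, calls fell from 6477 to 1280 in Kelly, 1929 to 667 in SKNAS, 1208 to 330 in BE2C and 1432 to 632 in SHSY5Y at a fold of at least 1.5. The shared spread gave 2070 in BE2C and 2782 in SHSY5Y. Array weights gave 4452 in SHSY5Y, 3546 instead of 1684 in the F test, 2075 instead of 1277 for Kelly minus SKNAS and 1261 instead of 327 for BE2C minus SHSY5Y. Without single arrays calls were as low as 4037 in Kelly, 1189 in SKNAS, 476 in BE2C and 840 in SHSY5Y. Signal over background limits CA9, EGLN3 in treated Kelly cells, CXCR4 in SKNAS and BE2C, FLT1 outside SKNAS, and CALCRL throughout.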
